A study of Mus musculus with 6 samples.

Results

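Zinc finger genes of the Zfp series were the nearest genes at 236 of the 22188 peaks in the deposited table of all peaks. Members were the rows whose gene name, taken from the nearest RefSeq transcription start site (TSS), was Zfp followed by a number only. Zfp36, an mRNA decay factor, and Zfp423, a regulator of fat cell commitment, were to be left out, and no row of the table as used here carried either name. The 236 peaks were assigned to 148 genes. They were split into 70 promoter peaks at 69 genes and 166 other peaks, of which 97 were intergenic and 57 intronic. A promoter peak lies between 1000 bp upstream and 100 bp downstream of a TSS in the authors' annotation.

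The peaks come from chromatin immunoprecipitation with an anti-V5 antibody and sequencing (ChIP-seq) in murine embryonic fibroblasts (MEFs) of the strain C57BL/6. All cells were Klf3-/- and were rescued with a V5-tagged protein. The Klf3-V5 cells made full-length KLF3, the ΔDL cells made KLF3 with a mutated contact motif for the corepressor CtBP, and the DBD cells made the zinc finger DNA-binding domain with little else. Each construct was delivered by an MSCV retrovirus, and each line was 1 stable clone picked under puromycin, so that construct and clone cannot be told apart. There were 2 replicates per construct, each with a paired input that entered through the peak calling alone. Whether the replicates were separate cultures is not given in the sources used here, so the p-values below measure only the spread between these samples. No RNA was measured in the files used here, so the cell type could not be checked against marker transcripts.

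Most Zfp genes encode proteins with C2H2 zinc fingers, in which a pair of cysteines and a pair of histidines hold a zinc ion and residues between them contact DNA. Many of them also carry a Krüppel-associated box (KRAB), which recruits the corepressor Trim28 and the histone methyltransferase Setdb1, and KRAB zinc finger proteins are known for silencing retroelements. Their genes have multiplied by tandem duplication and stand in clusters. KLF3 is a C2H2 protein as well, a repressor that binds CACCC-like sequence and works with CtBP.

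Sequences of high promoter peaks and of 2 kinds of distal peak are shown first. Each is 100 bases of mm9 centred on the peak, read on the plus strand. Capitals mark matches on either strand to the core of the KLF3 consensus, taken as the words ACACCC and CCACCC with their CpG forms ACGCCC and CCGCCC. The first 3 lie at promoters with a high KLF3 peak, and the fourth is a promoter where ΔDL was more than 2-fold lower.
Zfp367, chr13:64254739-64254838: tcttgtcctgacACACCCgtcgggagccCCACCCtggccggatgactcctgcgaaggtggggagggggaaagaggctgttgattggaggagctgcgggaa
Zfp28, chr7:6335939-6336038: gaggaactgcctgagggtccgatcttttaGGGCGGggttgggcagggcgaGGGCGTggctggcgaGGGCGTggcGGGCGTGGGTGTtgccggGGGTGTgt
Zfp41, chr15:75446951-75447050: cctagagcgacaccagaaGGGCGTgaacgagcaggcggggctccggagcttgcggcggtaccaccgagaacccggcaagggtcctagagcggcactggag
Zfp703, chr8:28087461-28087560: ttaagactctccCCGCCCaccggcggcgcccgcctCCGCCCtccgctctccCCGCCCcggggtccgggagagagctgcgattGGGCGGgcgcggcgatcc
The next 3 lie in an intergenic region upstream of Zfp462 and in introns of Zfp790 and Zfp606, at peaks that were called in every replicate of every construct.
Zfp462, chr4:54678509-54678608: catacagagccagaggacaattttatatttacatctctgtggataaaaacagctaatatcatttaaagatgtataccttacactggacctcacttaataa
Zfp790, chr7:30612510-30612609: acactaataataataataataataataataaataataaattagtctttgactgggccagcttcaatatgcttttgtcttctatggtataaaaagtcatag
Zfp606, chr7:13077056-13077155: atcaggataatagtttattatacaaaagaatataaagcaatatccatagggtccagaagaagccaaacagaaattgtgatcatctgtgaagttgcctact
The last lies in a CpG island 68740 bp from the Zfp706 TSS, at the distal Zfp peak that was highest in KLF3.
Zfp706, chr15:36868367-36868466: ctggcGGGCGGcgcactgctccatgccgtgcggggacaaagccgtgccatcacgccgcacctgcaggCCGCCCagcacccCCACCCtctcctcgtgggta
The promoter sequences hold 2 matches at Zfp367, 6 at Zfp28, 1 at Zfp41 and 4 at Zfp703. There is none in the sequences near Zfp462, Zfp790 and Zfp606, and there are 3 in the one near Zfp706.

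At the promoters, KLF3 gave the highest peaks, ΔDL intermediate ones and DBD the lowest. A height is the log2 of the tags within 400 bp of the peak centre per 100 M tags, with both replicates combined, and 2 to its power gives tags per 100 M. On that scale 1 counted tag was worth 4.29 in KLF3, 8.45 in ΔDL and 6.23 in DBD. KLF3 heights at the 70 promoter peaks ran from 7.15 to 10.53 with a median of 8.15, or 284 per 100 M. For ΔDL they ran from 4.50 to 9.90 with a median of 7.60, or 194 per 100 M. For DBD they ran from 2.38 to 7.35 with a median of 5.52, or 45.7 per 100 M. The lowest DBD height, 5.21 per 100 M, lay below the worth of 1 tag. All 70 peaks were lower in DBD than in KLF3, 57 were lower in ΔDL than in KLF3, and all 70 were lower in DBD than in ΔDL. The table itself favours KLF3 in these heights and in the 2-fold counts below. Peaks listed for KLF3 alone made up 81.4% of the 70, against 76.8% of all promoter peaks. The medians over all 4452 promoter peaks of the table were 8.32 for KLF3, 7.62 for ΔDL and 5.41 for DBD.

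**Figure D1:**
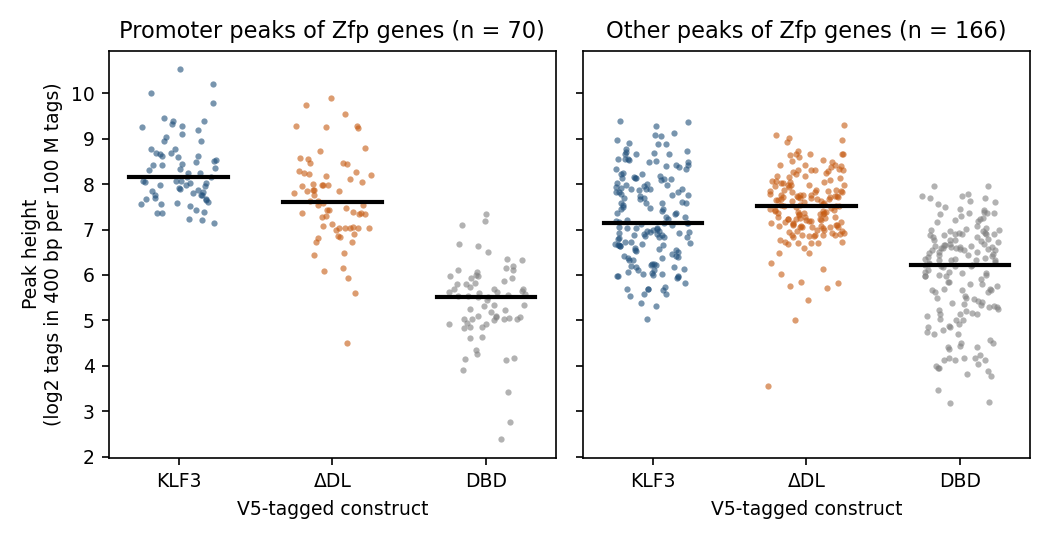
Peak height (y axis, log2 tags in 400 bp per 100 M tags) for KLF3, ΔDL and DBD (x axis) at the 70 promoter peaks (left) and 166 other peaks (right) of Zfp genes. Each point is a peak with both replicates combined and the bars are medians, which fall from 8.15 to 7.60 to 5.52 at promoters and read 7.16, 7.51 and 6.22 elsewhere.

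The highest promoter peak of the group was that of Zfp367. It stood 282 bp upstream of the TSS, with heights of 10.53 in KLF3, 9.75 in ΔDL and 5.69 in DBD. In the replicate lists, whose peak scores resolve into whole tags, it had 54 and 141 tags in KLF3, 9 and 38 in ΔDL, and no call in DBD. Zfp438 came next, with heights of 10.20, 9.90 and 7.19, and it was called in DBD replicate 2 with 11 tags. Zfp28, a KRAB gene whose coding sequence holds 14 finger matches, had heights of 10.01, 7.53 and 5.02. Its peak had 44 and 122 tags in KLF3, no call in ΔDL replicate 1, 10 tags in ΔDL replicate 2 and no call in DBD. Zfp41 had heights of 9.79, 9.25 and 6.10, and Zfp639 had 9.45, 7.85 and 5.45. The order KLF3 above ΔDL above DBD held at each of these 5 promoters, which were chosen by KLF3 height, a choice that favours it. That order held at 57 of all 70, where the entry of most peaks through KLF3 alone favours it too.

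ΔDL was at least 2-fold below KLF3 at 17 of the 70 promoter peaks (24.3%), against 33.7% of all promoter peaks in the table. Of the 17, 16 were listed for KLF3 alone, an entry that favours a lower ΔDL. ΔDL was at least 2-fold above KLF3 at none of the 70, against 0.854% of all. The median ΔDL minus KLF3 height was −0.52 at Zfp promoters, with a 95% binomial interval over peaks from −0.73 to −0.40, and −0.68 over all promoter peaks. The interval covers the spread over peaks, not over replicates, because a height exists for both replicates together only. The member just inside the 2-fold limit was Zfp946 at −1.09, and the one just outside was Zfp81 at −0.89. These counts depend on the scaling. The constructs were instead given equal medians at the 2334 peaks listed for all of them. ΔDL then moved by −1.06 and DBD by −0.42. Only 39 of these reference peaks lay at promoters. Of the other 2295, 8.50% held the consensus core within 100 bp of the centre. The shift was largest for ΔDL, the construct with the fewest tags. The worth of 1 tag in ΔDL was under 2-fold that in KLF3, and the ΔDL shift was over 2-fold. The scaling thus undoes the division by tag totals for ΔDL, and in part for DBD. Which scale is closer to the binding was not tested. After that scaling ΔDL was at least 2-fold lower at 59 Zfp promoters (84.3%), against 85.6% of all promoter peaks.

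The promoters with the largest loss in ΔDL, among those with a KLF3 height of at least 8, were those of Zfp316, Zfp28, Zfp52, Zfp821 and Zfp703. Zfp558, at 8.94 in KLF3 and 7.03 in ΔDL, tied with Zfp703 at −1.91. Zfp316 had heights of 8.59 in KLF3, 6.09 in ΔDL and 5.08 in DBD, a ΔDL difference of −2.50. It was called with 23 and 46 tags in KLF3 and in no other list. Zfp52, a KRAB gene, had heights of 8.24, 6.15 and 6.07, so that ΔDL and DBD were nearly level there. Zfp821 had 9.03, 7.05 and 5.74. Zfp703, whose product belongs to the NET family of zinc finger repressors, had 9.39 in KLF3, 7.48 in ΔDL and 5.26 in DBD at its promoter. Its promoter peak was called with 30 and 94 tags in KLF3 and in no ΔDL or DBD list. A peak 2386 bp upstream of the TSS, in an intergenic region, was nearly as high in KLF3, at 9.37, and stood at 8.66 in ΔDL and 5.47 in DBD. Both ΔDL lists held that upstream peak, at 9 and 25 tags. The neighbouring pair thus differed in ΔDL by more than 1 on the log2 scale while KLF3 was level.

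DBD was at least 2-fold below KLF3 at 69 of the 70 promoter peaks (98.6%), against 97.3% of all promoter peaks, a share near the background. The remaining member was Zfp668, named after its values were seen, with heights of 8.15 in KLF3, 8.72 in ΔDL and 7.35 in DBD. Its peak also lies near the start of Zfp646. After the shared-peak scaling DBD was at least 2-fold lower at all 70, against 98.1%. The median DBD minus KLF3 height was −2.89 at Zfp promoters and −2.99 over all promoters. No promoter in the table rose 2-fold in DBD, Zfp or other, a share of 0%.

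The replicate lists carried the same order in their calls. Of the 70 promoter peaks, KLF3 replicates 1 and 2 held 68 and 70, ΔDL replicates held 14 and 57, and DBD replicates held 0 and 3. The 3 called in DBD were those of Zfp438, Zfp106 and Zfp668, with 11, 9 and 8 tags. For 0 of 70 the 95% Wilson interval reaches 5.20%. The lists rest on very different depths, with 1.77 M tags behind ΔDL replicate 1 and 10.2 M behind ΔDL replicate 2, against 5.46 M and 18.1 M for KLF3 and 7.81 M and 8.38 M for DBD. The smallest call was 4 tags in ΔDL replicate 1 and 13 in KLF3 replicate 2. Depth moved with these counts between the ΔDL replicates, and its part in them was not tested. Of all promoter peaks, 97.3% and 98.3% were in the KLF3 lists, 25.5% and 73.6% in the ΔDL lists and 2.74% and 3.89% in the DBD lists. KLF3 coverage is partly set by the table itself, since 57 of the 70 entered it as peaks listed for KLF3 alone, 11 for KLF3 and ΔDL, and 2, at Zfp12 and Zfp143, for ΔDL alone.

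**Figure D2:**
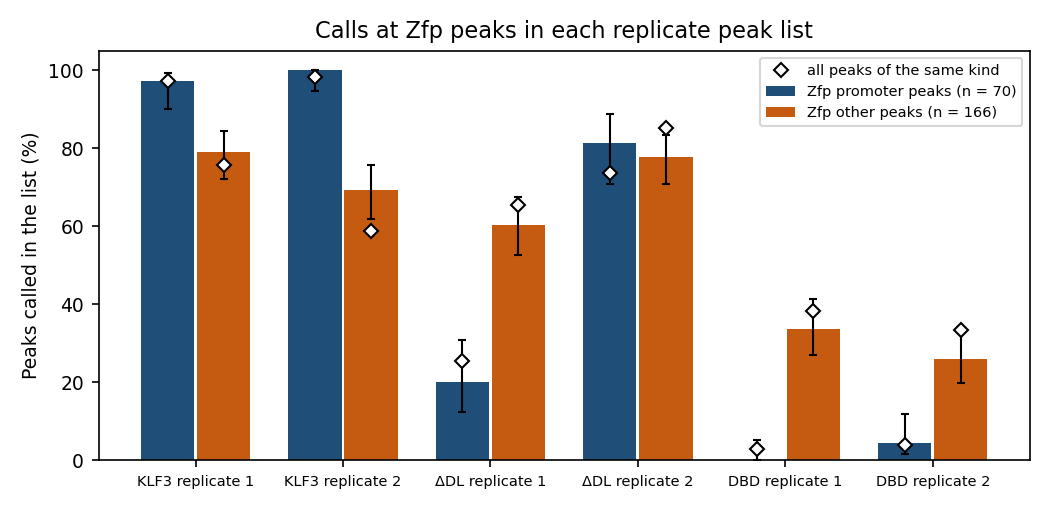
Share of Zfp peaks (y axis, %) called in each of the 6 replicate peak lists (x axis), with promoter peaks in blue and other peaks in orange, 95% Wilson intervals as bars and the share of all table peaks of the same kind as diamonds. Promoter calls fall from 70 of 70 in KLF3 replicate 2 to 0 of 70 in DBD replicate 1, while other peaks are still called at 33.7% there.

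The scores of called peaks allow a comparison within each replicate number. In replicate 1, 12 Zfp promoter peaks were called for both KLF3 and ΔDL, and the median log2 score of ΔDL was −0.05 relative to KLF3. In replicate 2, 57 were called for both, the median was −0.32 and 41 of the 57 were lower in ΔDL. Outside promoters the medians were 1.27 over 67 peaks in replicate 1 and 0.28 over 81 peaks in replicate 2. In both replicates the ΔDL median was thus lower at promoters than elsewhere, among peaks called for both constructs. All table peaks gave the same gap, with 0.09 and −0.47 at promoters and 1.44 and 0.37 elsewhere, in replicates 1 and 2. These medians leave out peaks that were not called for ΔDL. Calls in ΔDL replicate 1 began at 4 tags, a floor that favours ΔDL scores above KLF3 where KLF3 is low, as outside promoters. The part of this floor in the gap was not tested. Over the 51 Zfp peaks called in both KLF3 and both ΔDL lists, of either kind, the median log2 scores were 8.003 and 6.99 in KLF3 and 8.82 and 7.75 in ΔDL. The difference of 0.79 did not pass a two-sided exact permutation test over the 4 lists (p = 0.667, n = 2 against 2, adjusted p = 0.938 over 5 comparisons), and the smallest p this design allows is 0.333. Entry needed a call in both ΔDL lists, which 14 of the 70 promoter peaks had, against 68 in both KLF3 lists. This choice favours peaks that are high in ΔDL, so the sign of the difference cannot be read as a gain.

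G+C content moved with the response to ΔDL among the members. The 17 promoter peaks that were at least 2-fold lower in ΔDL had a median G+C of 70.6%, the 40 with a smaller loss had 59.0% and the 13 at or above KLF3 had 56.4%. The same order stood in the table as a whole, at 67.6%, 62.6% and 56.1%. Across the 70 promoter peaks Spearman's rho between G+C and the ΔDL difference was −0.47, and across the 166 other peaks it was −0.68, against −0.55 and −0.62 in the table. The points share libraries, and neighbouring genes share ancestry, so these are descriptions. Zfp395 (78.1% G+C) had the largest loss of any Zfp promoter, from 7.22 in KLF3 to 4.50 in ΔDL. Zfp143, a transcription factor of small nuclear RNA genes, and Zfp106 stood above KLF3 in ΔDL, by 0.56 and 0.52, at 58.6% and 58.1% G+C. Zfp52 lay off the trend with a loss of 2.09 at 54.4% G+C.

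**Figure D3:**
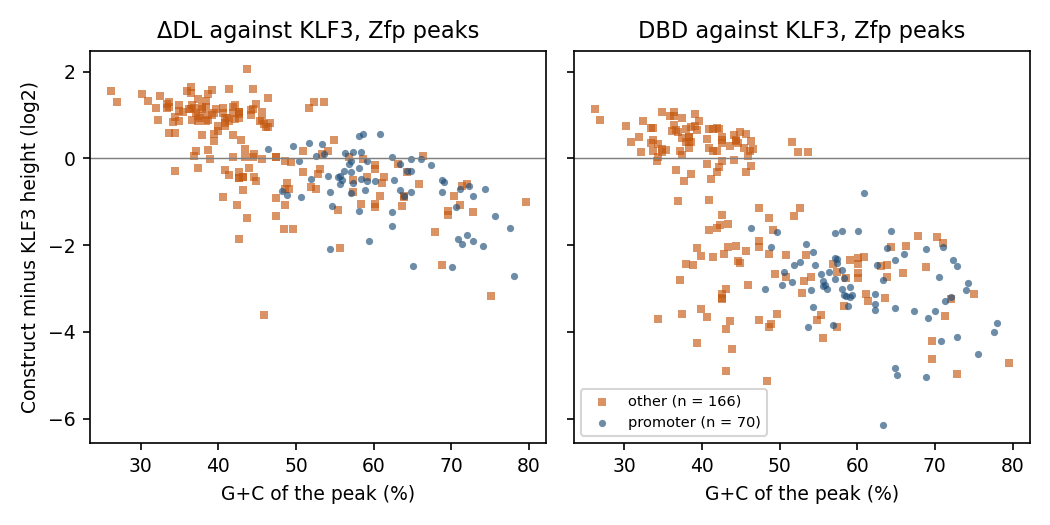
Difference in height from KLF3 (y axis, log2) for ΔDL (left) and DBD (right) against the G+C of the peak (x axis, %), with promoter peaks of Zfp genes as circles and other peaks as squares. ΔDL differences fall with G+C in both kinds of peak (rho −0.47 and −0.68), and in DBD the other peaks fall into a band near 0 at low G+C and a band below −1.

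The promoter members stood in clusters. Chromosomes 7 and 17 carried 16 and 15 of the 70 promoter peaks, or 22.9% and 21.4%, where they carried 4.85% and 5.95% of all promoter peaks. When promoter members at most 500 kb apart were joined, 34 of the 70 fell into 12 groups. The largest held 7 promoters within 0.35 Mb of chromosome 17, those of Zfp677, Zfp54, Zfp53, Zfp52, Zfp948, Zfp760 and Zfp229, and all 7 genes had a KRAB match. Their KLF3 heights ran from 7.58 at Zfp54 to 9.40 at Zfp53. Their ΔDL differences ran from −2.09 at Zfp52 to 0.35 at Zfp677. Zfp53 and Zfp52 thus lay in the same array with ΔDL differences of −0.13 and −2.09. Zfp53 was called with 29 and 82 tags in KLF3 and with 42 tags in ΔDL replicate 2, where Zfp52 had no call. A second group of 5 on chromosome 7, Zfp771, Zfp768, Zfp747, Zfp688 and Zfp668, ran from −1.77 at Zfp771 to 0.57 at Zfp668. Each of these groups thus spanned much of the range over all 70 promoters, which was −2.72 to 0.57. Tandem copies share sequence, so tags may be split between them, and this was not tested.

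Outside promoters the Zfp peaks formed a mixed set. Median heights at the 166 other peaks were 7.16 in KLF3, 7.51 in ΔDL and 6.22 in DBD. ΔDL was at least 2-fold lower at 22 of them (13.3%), against 10.2% of all other peaks, and at least 2-fold higher at 51 (30.7%), against 35.9%. The median ΔDL minus KLF3 height was 0.42 (95% binomial interval 0.03 to 0.82), where all other peaks gave 0.77. That sign turns under the scaling to the shared peaks, which gives −0.64 for the members and −0.29 for all other peaks, with 74 lower (44.6%, against 32.3%) and 1 higher (0.602%, against 0.496%). DBD was at least 2-fold lower at 85 (51.2%), against 41.3%, and higher at 4 (2.41%), against 4.09%, and the shared-peak scaling gave 87 lower (52.4%, against 42.6%) and none higher (against 0.536%). The median DBD minus KLF3 height was −1.23 (95% binomial interval −2.02 to −0.06), where all other peaks gave 0.03. The DBD differences fall into 2 bands, so a modest change in their shares moves this median far. The quartiles lay closer, at −2.72 and 0.38 for the members and −2.46 and 0.50 for all other peaks. Which sign of the ΔDL median holds at other peaks was not tested, and for ΔDL the scaling undoes the division by tag totals. The scaling moves every ΔDL height by the same amount. The gap between Zfp promoters and other Zfp peaks is thus the same on both scales by construction.

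**Figure D4:**
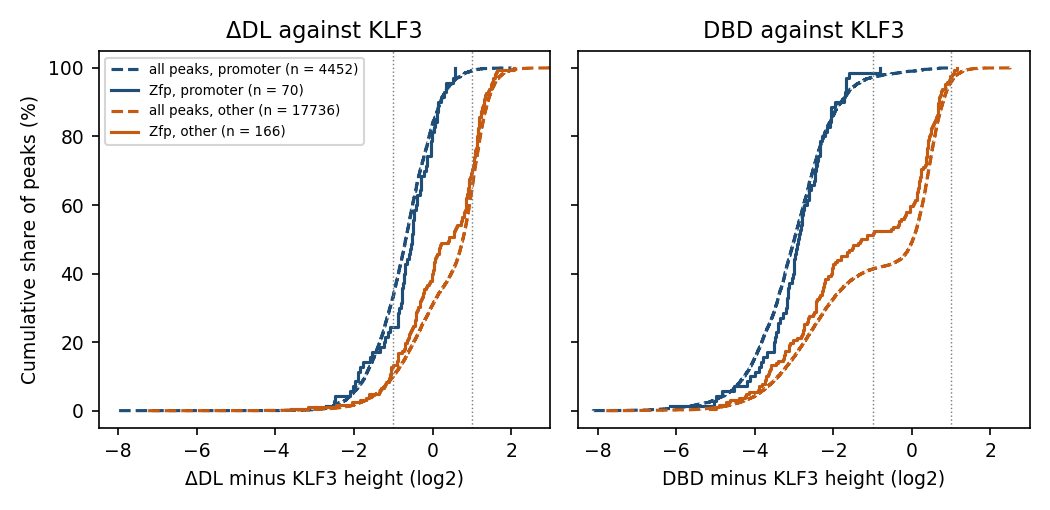
Cumulative share of peaks (y axis, %) by their difference in height from KLF3 (x axis, log2) for ΔDL (left) and DBD (right), with Zfp peaks as solid and all table peaks as dashed lines, promoters in blue and other peaks in orange. Dotted lines mark 2-fold changes. For DBD the Zfp line of other peaks reaches 51.2% at the lower mark, where the line of all other peaks reaches 41.3%.

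Distance from the TSS separated the other peaks. The 21 peaks up to 1 kb downstream resembled promoters, with medians of 8.18 in KLF3, 7.39 in ΔDL and 5.21 in DBD, and with 61.1% G+C. The 73 peaks between 10 and 100 kb away had medians of 7.04, 7.52 and 6.28, and the 31 beyond 100 kb had 6.73, 7.62 and 6.59. Median KLF3 height was thus lower, and median DBD height higher, in each class further out. The Zfp peaks were closer to genes than the table, since 12.7% of their other peaks lay within 1 kb downstream, against 4.82%, and 18.7% lay beyond 100 kb, against 31.7%. Within each of these distance classes the ΔDL medians of members and table lay close together, from −0.73 and −0.78 within 1 kb downstream to 1.05 and 1.01 beyond 100 kb. The DBD medians beyond 100 kb were 0.16 for members and 0.38 for the table.

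The highest KLF3 peaks outside promoters had the promoter order of the constructs, but they were chosen by KLF3 height, which favours that order. Over all 166 other peaks, the order KLF3 above ΔDL above DBD held at 64. Zfp706 had heights of 9.40 in KLF3, 8.17 in ΔDL and 4.42 in DBD at a CpG island 68740 bp from its TSS. Zfp389, 208 bp downstream of its TSS in an intron, had 9.28, 7.22 and 5.14, and was called in both KLF3 lists, with 19 and 79 tags, and in no other. Zfp62, 111 bp downstream of its TSS, had 9.12, 8.49 and 5.49. Zfp958 had 9.09, 8.67 and 5.81 at a CpG island 65228 bp from its TSS. For intergenic peaks the gene named is the nearest one, and no link to its expression was measured.

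A different order of heights appeared at 19 Zfp peaks that were called in all 6 lists. None of them lay at a promoter. Their median heights were 6.94 in KLF3, 8.10 in ΔDL and 7.38 in DBD. At 18 of the 19 ΔDL was highest and KLF3 lowest. Entry needed a call in ΔDL replicate 1, the shallowest list, where each tag counts most per 100 M. This choice favours peaks that are high in ΔDL, so the order of heights cannot be read as a gain in ΔDL. In tags, the medians were 13 and 18 in the KLF3 lists, 10 and 23 in the ΔDL lists, and 15 and 13 in the DBD lists. In tags no construct stood apart, and the order of the heights was the reverse of the order of the totals they were divided by, which were 23.3 M for KLF3, 16.0 M for DBD and 11.8 M for ΔDL. The 19 peaks had a median G+C of 37.4%, from 30.2% to 51.6%, and no KLF3 consensus core within 100 bp of the centre in any of them. The table held 2345 such peaks with medians of 7.05, 8.11 and 7.47, and 9.38% of those held the core. The Zfp462 peak shown above had 17 and 26 tags in KLF3, 22 and 24 in ΔDL, and 23 and 22 in DBD. The Zfp790 peak had 20 and 18 in KLF3, 22 and 23 in ΔDL, and 24 and 22 in DBD. Zfp606, Zfp648 and Zfp407 followed the same order of ΔDL over KLF3, by 0.97, 0.99 and 1.07. These peaks held few tags in every list, and what they share with the input was not tested.

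None of the 51 Zfp peaks that were at least 2-fold higher in ΔDL lay at a promoter. This was near the background, since promoter peaks made up only 38 of all 6404 such peaks. After the shared-peak scaling only 1 Zfp peak was at least 2-fold higher in ΔDL. The differences below are those before that scaling, and whether they are gains in binding was not tested. The most positive ΔDL differences, among peaks with a ΔDL height of at least 8, were 1.65 near Zfp770, 1.55 near Zfp42, 1.51 and 1.25 near Zfp462 and 1.49 near Zfp958. The Zfp770 peak stood at 6.64 in KLF3, 8.29 in ΔDL and 7.62 in DBD, and had 8 and 19 tags in ΔDL, 11 and 11 in DBD and 13 in KLF3 replicate 2. Zfp42, known as Rex1 and a marker of pluripotent cells, had its peak 76211 bp upstream in an ERVK long terminal repeat, at 6.47, 8.02 and 7.61. All 5 lay at 26.2% to 36.4% G+C. Largest for DBD against KLF3, among peaks with a DBD height of at least 7, were Zfp42 at 1.14, Zfp462 and Zfp37 at 1.06, Zfp770 at 0.98 and Zfp352 at 0.85. The Zfp37 peak lay in intron 1, 2181 bp downstream of its TSS. The highest DBD peaks, both at 7.96, were that of Zfp462 above and a peak 43534 bp from the Zfp958 TSS. The latter was one of 5 Zfp peaks listed for DBD alone, with those of Zfp42, Zfp251, Zfp946 and Zfp191. It had 15 and 24 tags in DBD and no call for KLF3 or ΔDL, but its heights of 7.61 in KLF3 and 7.72 in ΔDL were nearly as high. Their ΔDL heights ran from 7.38 to 8.02, above or near their DBD heights of 6.76 to 7.96.

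Peaks per gene varied widely. Of the 148 genes, 102 had 1 peak, 28 had 2 and 18 had 3 or more. Zfp608 had the most, with 14 peaks up to 485194 bp from its TSS and none at its promoter. Of these, 9 were listed for KLF3 alone and none for DBD, with KLF3 heights from 5.31 to 8.56 and ΔDL differences from −3.61 to 1.59. Zfp462 had 6 peaks, of which 3 were called for every construct. Zfp217, whose human counterpart is an oncogene product found in CtBP complexes, had 5 peaks, 4 of them listed for KLF3 alone, with ΔDL differences from −0.88 to 0.17. Its DBD differences ran from −4.90 to −1.33, all beyond 2-fold. Zfp536, a repressor of neuronal differentiation, also had 5 peaks, but all were listed for ΔDL and their ΔDL differences ran from 0.62 to 1.33. Zfp386 had 5, with its promoter peak at 7.51 in KLF3, 7.04 in ΔDL and 5.05 in DBD. Zfp365, Zfp521, Zfp770 and Zfp958 had 4 each. Zfp521, which holds back adipocyte commitment, had an intronic peak at 8.48 in KLF3, 9.02 in ΔDL and 6.04 in DBD. Zfp503, a relative of Zfp703, had 3 peaks, and all of them were lower in ΔDL by 1.05 to 1.19 and in DBD by 2.44 to 3.62. The other genes with 3 peaks were Zfp143, Zfp238, Zfp352, Zfp395, Zfp407, Zfp652, Zfp704 and Zfp706.

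The promoter share of Zfp peaks was above that of all other peaks in 5 of the 6 replicate lists. In KLF3 replicate 1, 29.2% of 298 Zfp peaks were promoter peaks, against 19.9% of all others, and in KLF3 replicate 2 it was 39.2% of 309 against 30.9%. In the ΔDL lists the shares were 10.6% of 160 against 7.34% and 29.1% of 358 against 15.8%. In the DBD lists they were 1.37% of 73 against 1.60% and 4.69% of 64 against 2.79%. The mean difference was 5.96 percentage points ± 5.13 (SD, n = 6 lists), and a two-sided exact sign-flip permutation test gave p = 0.0625 and an adjusted p of 0.312 over 5 comparisons, where the smallest p possible is 0.0312. The difference thus did not pass the test, but with 6 lists no difference could have passed after the adjustment. It was 8.77 ± 0.694 points (SD, n = 2) in KLF3 and 8.28 ± 7.06 in ΔDL. The scores of Zfp promoter peaks and other promoter peaks of a list were not separated by this test, with a mean difference in median log2 score of 0.04 ± 0.23 (SD, n = 6, p = 0.75, exact sign-flip permutation test, adjusted p = 0.938). The 6 lists span all constructs and counted alike. Their Zfp medians rest on 87 and 121 promoter peaks in KLF3, 17 and 104 in ΔDL, and 1 and 3 in DBD. Zfp genes took 1.62% and 1.64% of the promoter peaks in KLF3, 1.34% and 2.00% in ΔDL, and 0.685% and 1.32% in DBD. The differences from KLF3 were 0.04 points for ΔDL (p = 1, exact permutation test, n = 2 against 2, adjusted p = 1) and −0.63 points for DBD (p = 0.333, adjusted p = 0.833).

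**Figure D5:**
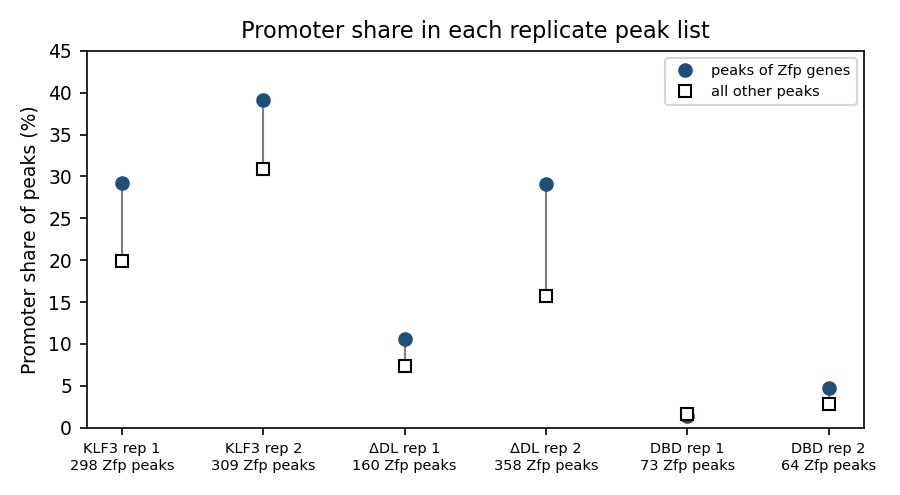
Share of peaks annotated as promoter (y axis, %) in each replicate list (x axis, with the number of Zfp peaks), for Zfp genes as filled circles and for all other peaks as open squares. The circle lies above the square in 5 of the 6 lists, by 1.90 to 13.3 percentage points, and just below it in DBD replicate 1.

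The share of Zfp genes with a promoter peak was close to that of all genes. Of 338 Zfp genes with a coding sequence in GENCODE, 69 had a promoter peak (20.4%, 95% Wilson interval 16.46% to 25.03%), against 17.7% of all 22594 protein-coding genes. Among 147 member genes with a coding sequence, the median was 9 C2H2 finger matches and 68 had a KRAB match. No finger match was found in 5 of them, Zfp703 included. A KRAB match was found in 69.5% of genes with 9 or more fingers and in 0.197% of genes with none, and this split was made after the data were seen. Of Zfp genes with a KRAB match, 19.0% had a promoter peak, and of those without it 35 of 159 did. The 35 promoter peaks of KRAB genes had median heights of 8.02 in KLF3, 7.43 in ΔDL and 5.59 in DBD. The 35 of other Zfp genes had 8.35, 7.80 and 5.34. Median G+C was 56.4% in the KRAB promoters and 64.8% in the others, so that the KRAB promoters were poorer in G+C, while their ΔDL medians were close, at −0.48 and −0.54. Zfp809, which silences retroviral DNA, had heights of 8.15 in KLF3, 8.26 in ΔDL and 4.26 in DBD. Zfp57, which keeps methylation at imprinted genes, had a pair of promoter peaks at 7.97 and 7.68 in KLF3 and 7.38 and 7.28 in ΔDL. Outside promoters the classes lay further apart, with median DBD differences of 0.14 over 51 peaks of KRAB genes and −1.73 over 114 peaks of other Zfp genes. Median KLF3 heights there were 6.97 and 7.40.

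The KLF3 consensus core was present within 100 bp of the centre in 55 of the 70 promoter peaks (78.6%, 95% Wilson interval 67.6% to 86.6%), against 83.1% of all promoter peaks. It was present in 68 of the 166 other Zfp peaks (41.0%), against 29.4% of all other peaks. Both strands were searched, and a G+C-rich window holds such short words more readily. Zfp promoter peaks with no match had a median of 194 KLF3 tags per 100 M (15 peaks), those with 1 match 284 (22 peaks), with 2 matches 362 (20 peaks) and with 3 matches 426 (10 peaks). In the table the same classes had 264, 302, 347 and 355 per 100 M. Height was thus larger with more matches in both. The 3 Zfp promoters with 4 or more matches were those of Zfp28, Zfp703 and Zfp52, with ΔDL differences of −2.48, −1.91 and −2.09. This was noticed after the values were seen and was not tested. Zfp promoters with 0, 1, 2 and 3 matches had median ΔDL differences of −0.52, −0.45, −0.815 and −0.135, with no steady fall. In the table these classes had −0.31, −0.52, −0.78 and −0.95, and promoters with 4 or more matches had −1.24. An ETS word (CCGGAAG) stood in 12 of the 70 windows (17.1%, against 11.1% of all promoter peaks) and a CCAAT word in 14 of the 70 (against 17.5%). No Zfp promoter window held an AP-1 word (TGACTCA or TGAGTCA), against 1.95% of all, and 11 of the other Zfp peaks did (6.63%, against 9.15%).

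Related families were compared by their medians. Promoter peaks of Zbtb genes (12 peaks) had a median ΔDL difference of −0.26, those of Zscan and Zkscan genes (3 peaks) −0.32 and those of Zc3h genes (7 peaks) −0.68, against −0.52 for Zfp genes. DBD was at least 2-fold lower at all 22 of these peaks, against 97.3% of all promoter peaks, a share near the background. Of 15 genes chosen for the corepressor machinery that KRAB proteins use, 9 had a peak and 4 had a promoter peak. Uhrf1, which guides maintenance methylation, had a pair of promoter peaks at 10.53 and 10.22 in KLF3, 9.35 and 7.87 in ΔDL and 6.38 and 5.91 in DBD. Dnmt1, the maintenance methyltransferase, had 7.61, 6.47 and 5.85, and Mphosph8 had 7.55, 6.38 and 5.38. ΔDL was at least 2-fold lower at 4 of the 5 promoter peaks of this list, a pair of them at Uhrf1, against 33.7% of all promoter peaks. After the shared-peak scaling 85.6% of all promoter peaks were that low, and this list was not recounted on that scale. Cbx5, a heterochromatin protein, had intronic peaks at 8.57 and 8.55 in KLF3, with ΔDL at 7.15 and 8.59, so that its neighbouring peaks differed in ΔDL. No peak of the table was assigned to Trim28, Setdb1, Cbx3, Chd4, Hdac1 or Kdm1a.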

How the data were processed

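Peaks of Zfp genes were taken from ChIP-seq of V5-tagged KLF3, ΔDL and DBD in Klf3-/- MEFs, with 2 replicates per construct. Each of the 6 deposited records covers both replicates, and the peak lists name the replicate. The members and gene lists were chosen with earlier results of these data known.

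Reads of 50 bp were aligned by the authors to mm9 (Bowtie2 2.0.0), and HOMER 4.1 called the peaks of each replicate. They required 5-fold enrichment over input and a false discovery rate of 0.001, and annotated peaks with RefSeq. FastQC 0.10.1 and SAMtools 0.1.18 also stand in the submitters' processing notes. The heights are log2 values that the authors computed from both replicates combined, per 100 M tags. They carry a small random term, since heights given in 2 deposited tables at the same interval differed by up to 0.12. The peak score of a replicate list is a signal that the authors give in tags per 100 M. Its values are whole multiples of a step, from which tags per peak and 1.77 M to 18.1 M tags per list were taken. The mapped reads that the study lists for each library are more numerous than these tags, and how they were reduced is not given in the sources used here. The G+C fraction and the mean PhastCons score of each peak were deposited by the authors. G+C recomputed from mm9 differed from the deposited fraction by at most 4.96e-07 in all 14115 peaks compared.

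Heights have no replicate error and were not tested. List values were compared with two-sided exact permutation tests, sign-flip over 6 lists or 2 lists against 2, with Benjamini-Hochberg adjustment over 5 comparisons. Shares carry 95% Wilson intervals, which cover counting error only. Overlap was at least 1 bp. Fingers and KRAB boxes were counted as pattern matches in the longest GENCODE coding sequence per gene, the KRAB box within the first 400 residues. Of 148 member genes, 147 matched by symbol, and Zfp389 did not.

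Named peaks were the 5 promoter and 5 other peaks with the highest KLF3 height, the 5 promoter peaks with the largest ΔDL loss at a KLF3 height of at least 8, the 5 peaks with the largest ΔDL gain at a ΔDL height of at least 8, the 5 highest in DBD, the 5 with the largest DBD gain at a DBD height of at least 7, the 5 highest KLF3 peaks called in all lists, peaks listed for DBD alone, and genes with 3 or more peaks. Peaks named beyond this rule were chosen after their values were seen. The code was checked on simulated data with known answers. The tools were scipy 1.17.1, pandas 2.3.3 and numpy 2.4.6 under Python 3.11.15, with biopython and matplotlib. Alternatives in scaling, threshold, filters, overlap and replicates are given in the closing section.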

Additional observations from a re-analysis of the deposited data

How the results depend on the processing

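Of 132 values recomputed under alternatives, 103 kept their direction and their side of the threshold or stayed near the value given, 23 moved and 6 turned sign. Part of the 103 was fixed in advance, so this count does not measure robustness. Including Zfp36 and Zfp423 could change no height value, since no row carried these names. Defining promoters by distance returned the same height values. List results could change by sign alone, since no list test could pass after adjustment. Giving the constructs equal medians at the peaks listed for all of them gave 59 Zfp promoter peaks and 74 other peaks at least 2-fold lower in ΔDL and 1 peak higher. The same scaling gave median ΔDL differences of −1.58 at promoters and −0.64 at other peaks, and a median DBD difference of −3.32 at promoters. A 1.5-fold threshold gave 32 promoter and 37 other peaks lower and 78 peaks higher in ΔDL, and a 4-fold threshold gave 5, 4 and 1. With 1 peak per gene, 14 of 85 other peaks were lower in ΔDL, 20 of 148 peaks were higher and 49 of 85 other peaks were lower in DBD, with medians at other peaks of 0.06 for ΔDL and −2.02 for DBD. At a KLF3 height of at least 8, 10 other peaks were lower in ΔDL, 0 peaks were higher, and 41 promoter and 43 other peaks were lower in DBD, with medians at other peaks of −0.44 for ΔDL and −2.81 for DBD. Peaks listed for KLF3 gave 15 peaks higher in ΔDL and medians at other peaks of −0.30 for ΔDL and −2.35 for DBD. Fewer peaks entered the last 3 of these, and the cause of the sign changes was not tested. Leaving out Zfp608, or promoter peaks near another start site, both chosen after the data were seen, turned no sign and moved no count by over 1.5 times.

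The consensus core was in 100% of Zfp promoter peaks within 400 bp and its CACCC form in 38.6% within 100 bp. The score difference of Zfp promoters turned to −0.0338 in the upper 50% of each list by score. Leaving out each list in turn gave −0.0408 to 0.0904 for this difference, negative without ΔDL replicate 1 alone. The promoter share difference then ran from 4.50 to 7.20 percentage points. The Zfp share of promoter peaks ran from −0.29, without ΔDL replicate 2, to 0.37, without ΔDL replicate 1, for ΔDL minus KLF3 and from −0.94 to −0.31 for DBD minus KLF3. The ΔDL score difference ran from 0.25 without ΔDL replicate 1 to 1.33 without ΔDL replicate 2. With 1 peak per gene and list, the promoter share difference was 12.6 points (p = 0.0312, exact sign-flip permutation test, the smallest p possible, adjusted p = 0.156). No list result passed its test after adjustment under any alternative run, and none could have. The smallest p possible, 0.0312 over 6 lists and 0.333 for 2 lists against 2, is too large once adjusted over 5 comparisons. These tests thus cannot tell a difference from none. With the replicate number as a block, the score difference of ΔDL at the 51 peaks was 0.79 (p = 0.5, exact sign-flip permutation test, the smallest p for 2 pairs). Across these peaks the deviations of same-numbered KLF3 and ΔDL lists correlated with r = 0.42. With 2 pairs this does not show that the numbers pair the samples. Replicate 1 was the shallower list for both constructs. Calls in ΔDL replicate 1 began at 4 tags, so a promoter that it leaves out is not shown to be unbound.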

Other observations

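Repeats, conservation and shared start sites were also recorded. Of the 166 Zfp peaks outside promoters, 31 (18.7%) were annotated to a repeat of any class, against 21.5% of all such peaks. Among the Zfp peaks 11 were in long terminal repeats and 9 in LINE elements. The long terminal repeat peaks had KLF3 heights from 5.94 near Zfp637 to 8.67 near Zfp652, and 6 of the 11 elements were of the ERVK family. Only 5 of 70 peaks listed for KLF3 alone outside promoters were in a repeat, against 16 of 43 listed for ΔDL alone (7.14% and 37.2%), and all table peaks gave 13.9% and 27.0%. These differences were not tested. The median PhastCons score of Zfp promoter peaks was 0.20 against 0.22 for all promoters, and it was 0.12 at promoters of KRAB genes and 0.28 at those of other Zfp genes. At other Zfp peaks it was 0.08 against 0.06.

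A coding start site of another gene lay within promoter distance of 6 Zfp promoter peaks (8.57%), against 14.9% of all promoter peaks, and none of the 6 was at a KRAB gene. These were the promoters of Zfp276, Zfp319, Zfp189, Zfp524, Zfp668 and Zfp143. Of the 70 promoter peaks, 36 (51.4%) had their centre in the 100 bp just upstream of the start site, against 46.2% of all promoter peaks. The share was 62.9% at KRAB genes and 40.0% at other Zfp genes.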
